A study of Mus musculus with 3 samples.

Results

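Toll-like receptors and their shared adaptor were followed through peripheral blood (PB) leukocytes of naive and leukemic mice. The set held 10 genes of the 32285 in the count tables, listed by name with earlier results of these data known. They were the surface receptors Tlr1, Tlr2, Tlr4 and Tlr6 and co-receptor Cd14, the endosomal receptors Tlr7, Tlr8, Tlr9 and Tlr13, and the adaptor Myd88. The mice were wild-type (WT) young adult female Balb/C animals. Those of the naive sample carried no leukemia, and those of the other samples were engrafted with BBC2 cells and sampled at day 11 (D11) or day 14 (D14). BBC2 is a GFP-marked cell line from a mouse stem cell leukemia/lymphoma syndrome (SCLL), begun by stem cells that carried the BCR-FGFR1 fusion kinase, and its cells resemble pro-B cells. It is a line transplanted into a host whose own immune cells remain. Red cells were lysed and dead cells removed before 10x Genomics 3′ v3 libraries were made, 1 library per condition, and the number of mice behind each library is not given in the sources used here.

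Toll-like receptors bind conserved microbial and host danger molecules. TLR2 acts in pairs with TLR1 or TLR6 on bacterial lipoproteins, TLR4 senses lipopolysaccharide handed over by CD14, TLR7 and TLR8 belong to the single-stranded RNA sensors of the endosome, TLR9 senses unmethylated CpG DNA, and TLR13, a receptor that mice have and humans lack, senses bacterial ribosomal RNA. All of these receptors signal through MyD88, which recruits IRAK kinases and leads to NF-κB activation. Blood neutrophils and monocytes are known for carrying most of them.

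Unique molecular identifiers (UMIs) each stand for 1 captured transcript. Cells were taken as barcodes with 200 genes or more and a mitochondrial share of 10% or less, of which the naive library held 3811, D11 held 4567 and D14 held 4414. Classes were gated by marker genes that hold none of the 10 genes. A gated cell had at least 3 markers of its class and at least 2 more than of any other class, and barcodes with at least 10% hemoglobin UMIs were set aside. The unassigned share was 6.31% to 8.79% of a library. Neutrophil-like cells numbered 1277 naive, 1557 D11 and 1240 D14. There were 126, 196 and 609 non-classical monocyte-like (ncMono-like) cells and 142, 235 and 123 classical monocyte-like (cMono-like) cells in the same order. The sum of UMIs ranged from 1050284 to 6131081 over these 9 combinations of class and library. B-like cells numbered 394, 246 and 40, the last too few to rest much on, and pro-B-like cells, which carry the markers of the engrafted leukemia, 3, 103 and 750. Between 12 and 18 barcode sequences were shared by a pair of libraries. The markers of each myeloid class were all detected in its own cells in each library. The gate selects for these markers, so this is no separate check of identity. Levels are UMIs of a gene per 1000000 UMIs of the class sum (CPM), and brackets hold exact 95% intervals that cover counting error only. With 1 library per condition nothing was tested, and a difference between conditions cannot be told apart from a difference between libraries. The level of each gene is compared between classes and libraries, never with that of another gene.

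The genes lie on chromosomes 5 (Tlr1 and Tlr6, which are neighbours), 3 (Tlr2), 4 (Tlr4), 18 (Cd14), X (Tlr7, Tlr8 and Tlr13) and 9 (Tlr9 and Myd88). Tlr1 and Tlr6 are close paralogs, and reads that fit both could be lost from either, which was not tested. The Myd88 locus overlaps Slc22a14 on the same strand and Acaa1a on the other, so some of its reads may be shared. Tlr1 and Tlr2 code for partners of a single receptor pair, and both were higher in neutrophil-like cells at D14. Each is shown by a stretch within the 250 bases before its RefSeq start (GRCm38.p6, minus strand, upstream of every annotated exon). Windows of 250 bases before the start were searched on both strands for 7 of the 10 genes. The letters sought were the NF-κB consensus and GAGGAA, the core of PU.1-type sites. The motifs were chosen after the windows had been seen, and no match of either motif overlaps a match of the other in these genes.
Tlr2, chr3:83841768-83841792, an NF-κB consensus match in capitals: ttaggacacctgGGGAATTCCCaca
Tlr1, chr5:64933573-64933593, the PU.1-type match in capitals: aattaaatgttgGAGGAAgta

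Tlr2 was the only gene of the 7 with the NF-κB consensus, which 7.25% of all 32851 windows held. It had 2 overlapping matches that began 173 and 172 bases before its RefSeq start. The annotation that gave the gene loci begins Tlr2 further upstream, at base 83841767, directly beside the printed stretch. These distances therefore hold for the RefSeq start only. The match near Tlr1 began 23 bases before the start of the first of its 2 windows, and the second window held none. Tlr8, Tlr9 and Tlr13 also held the PU.1-type letters, found in 23.3% of all windows. These matches are letters in a window and say nothing of binding. No window was searched for Tlr4, Cd14 or Tlr7, so nothing is said of either motif near them. The search of the 10 genes left out chromosome 18, where Cd14 lies, by a set rule. The share over all windows had no such limit.

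Transcripts of 8 of the 10 genes were highest in a myeloid class in every library, and Tlr1 and Tlr9 were the exceptions. The lipopolysaccharide receptor gene Tlr4 stood at 156 [145 to 168] CPM in naive neutrophil-like cells, 2.64 [2.04 to 3.48] times the 59.0 CPM of ncMono-like cells, which in turn was 1.71 [1.18 to 2.47] times the 34.5 CPM of cMono-like cells. Tlr13 followed the same order at 160, 118 and 86.8 CPM, each step beyond counting error. Tlr7 ran the other way, with 226 [198 to 256] CPM in naive ncMono-like cells, 86.3 in cMono-like cells and 38.1 in neutrophil-like cells, and these steps of 2.62 [2.13 to 3.22] and 2.26 [1.81 to 2.82] times were also beyond counting error.

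Tlr8 was highest in naive ncMono-like cells too, at 75.2 CPM, 1.61 [1.17 to 2.21] times the cMono-like level of 46.8 CPM, which did not differ from the 35.8 CPM of neutrophil-like cells beyond counting error (ratio 1.31 [0.993 to 1.71]). Tlr2 did not separate the 3 naive myeloid classes, at 35.6, 33.4 and 25.7 CPM in neutrophil-like, cMono-like and ncMono-like cells. Myd88 was highest in naive neutrophil-like cells, at 134 CPM, against 73.3 in ncMono-like and 70.7 in cMono-like cells, whose ratio was 1.04 [0.771 to 1.39]. Tlr6 was at 41.7 CPM in neutrophil-like cells, 22.9 in ncMono-like and 10.6 in cMono-like cells, with both steps beyond counting error.

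**Figure D1:**
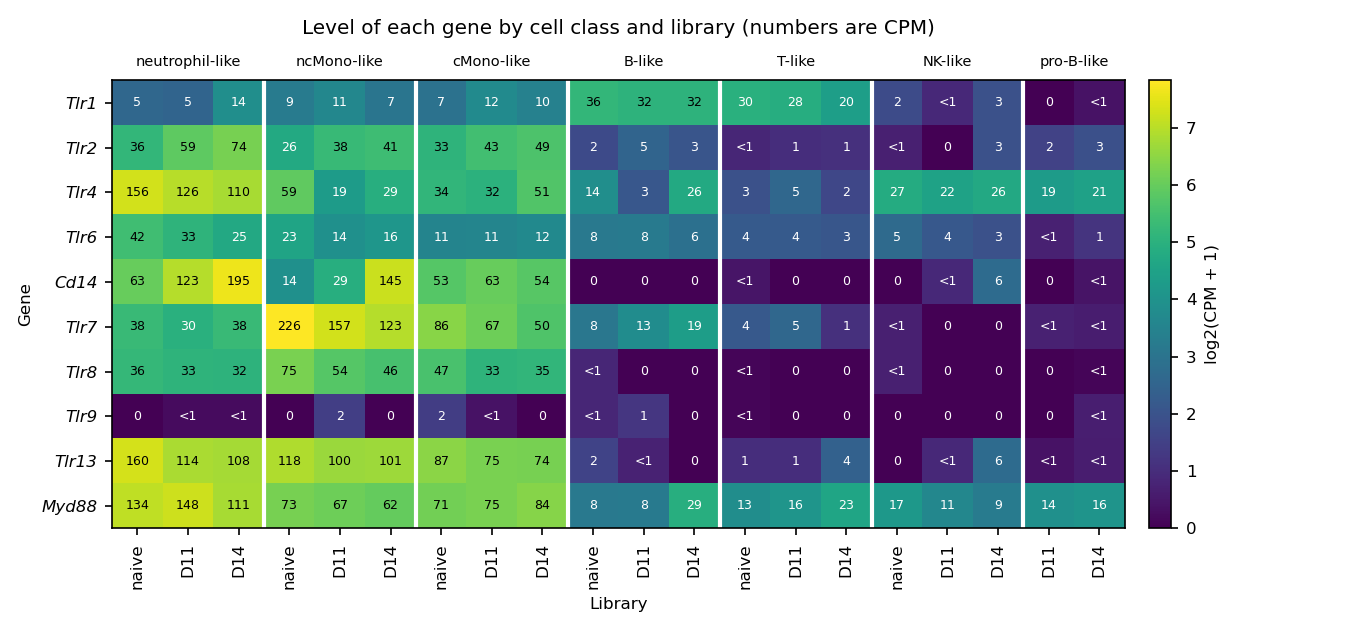
Level of each gene in CPM of the class sum, printed in each field and coloured by log2(CPM + 1), for 7 classes and the 3 libraries; pro-B-like cells were too few in the naive library. Tlr7 is brightest in ncMono-like cells (226 CPM naive), Tlr1 in B-like and T-like cells, and Cd14 brightens from naive to D14 in neutrophil-like and ncMono-like cells but not in cMono-like cells.

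Outside the myeloid classes the receptors were sparse, with several exceptions. Tlr1 was at 35.5 [28.5 to 43.7] CPM in naive B-like cells and 30.1 [27.0 to 33.5] CPM in naive T-like cells, which did not differ beyond counting error (ratio 1.18 [0.923 to 1.49]). The T-like level was 3.51 [1.83 to 7.75] times that of ncMono-like cells, the next class. T-like cells, with 1220 cells against 394 B-like cells, held 66.9% of the Tlr1 UMIs of the naive library and B-like cells 17.1%. NK-like cells held Tlr4 at 27.4 [20 to 36.7] CPM naive, 21.9 at D11 and 25.6 at D14. Pro-B-like cells held Tlr4 at 18.7 [14.2 to 24.1] CPM at D11 and 21.2 [19.4 to 23.1] at D14, and Myd88 at 14.2 and 15.6 CPM. In the same cells Cd14 was at 0 of 3159905 UMIs at D11 and 8 of 24056022 at D14, and Tlr7, Tlr8 and Tlr13 were each under 1 CPM. Ly96, which codes for the MD-2 partner of TLR4 on the cell surface, was at 5.38 [3.13 to 8.61] and 8.31 [7.20 to 9.55] CPM in these cells.

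Tlr9 was close to absent. It had 0 UMIs in naive neutrophil-like cells, with an exact upper limit of 0.786 CPM, and 3 counts there would equal 0.639 CPM. It had at most 3 UMIs in any sum of a myeloid class. B-like cells, a known site of TLR9, held 2 UMIs in the naive library and 2 at D11. Its largest count was 14 UMIs in pro-B-like cells at D14, 0.582 [0.318 to 0.976] CPM. No ratio is given for Tlr9 because it never reached 20 UMIs over a pair of libraries. Of the Toll-like receptor genes outside the set, Tlr5, the flagellin receptor, was at 9.16, 10.4 and 6.32 CPM in neutrophil-like cells, and Tlr3, Tlr11 and Tlr12 had at most 19 UMIs in any of these classes in a library.

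A gene was called past 2-fold when its ratio of CPM was at least 2 or at most 0.5 and the interval left out 1, among genes with at least 20 UMIs over both libraries. The counts are read against the share of all genes past the same limits.

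In neutrophil-like cells Cd14, Tlr2 and Tlr1 rose by D14 and none of the other receptors did. Cd14 was at 63.3 [56.3 to 70.9] CPM naive, 123 [114 to 132] at D11 and 195 [184 to 207] at D14. The 3 intervals do not overlap. Relative to naive the D14 level was 3.09 [2.72 to 3.52] times and the D11 level 1.94 [1.70 to 2.23] times. Tlr2 was at 35.6 [30.4 to 41.4], 58.7 [52.7 to 65.1] and 74.3 [67.4 to 81.6] CPM, again in separate intervals, and its D14 ratio was 2.09 [1.74 to 2.51]. Tlr1 was at 5.11 [3.28 to 7.61], 4.79 [3.21 to 6.89] and 13.7 [10.8 to 17.0] CPM. Only its D14 level stood apart, from 24 UMIs naive and 80 at D14, with a ratio of 2.67 [1.68 to 4.41]. These 3 genes of the 9 with enough UMIs were past 2-fold upwards at D14, and none downwards, against 11.4% of 10130 genes upwards and 12.5% downwards. At D11 none was past 2-fold in either direction, where 3.42% and 5.02% of 9854 genes were, although Cd14 went from 0.96 to 1.09 on the log2 scale with TMM scaling factors, past 2-fold.

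The other neutrophil-like levels were lower or level. Tlr4 was at 156, 126 and 110 CPM, a D14 ratio of 0.704 [0.632 to 0.784], and Tlr13 at 160, 114 and 108 CPM, a ratio of 0.674 [0.605 to 0.751]. Tlr6, the alternative partner of TLR2, was at 41.7, 32.9 and 25.3 CPM, a ratio of 0.605 [0.486 to 0.753], the opposite direction to Tlr1 and Tlr2. Tlr7 (38.1, 30.3 and 38.2 CPM) and Tlr8 (35.8, 33.1 and 32.3 CPM) did not differ from naive at D14 beyond counting error. Myd88 was at 134, 148 and 111 CPM, with a ratio of 0.831 [0.743 to 0.929] at D14. In these cells the median gene lay at -0.17 on the log2 scale at D14, and TMM factors moved every ratio up by 0.16. That left the directions of Tlr4, Tlr6, Tlr13 and Myd88 as they were and moved Tlr8 from -0.15 to 0.01. The Myd88 interval ended at -0.11 on that scale, so with TMM factors its fall was not beyond counting error.

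The make-up of the neutrophil-like class moved with these values. Secondary granule transcripts of immature neutrophils (Camp, Ltf, Ngp and Chil3) summed to 1522 CPM naive, 6649 at D11 and 13669 at D14, all 4 detected in each library. Cells with at least 0.5% of such UMIs were called immature and numbered 120 at D11 and 289 at D14. In the mature remainder Cd14 was at 65.0, 124 and 225 CPM, Tlr2 at 35.9, 58.6 and 86.7 CPM and Tlr1 at 5.25, 5.49 and 19.4 CPM, so all 3 were as high or higher at D14 without the immature cells. Tlr4 was at 159, 140 and 147 CPM in mature cells, a D14 ratio of 0.929 [0.829 to 1.04] that no longer differed from naive beyond counting error, against 47.3 [38.6 to 57.3] CPM in immature cells at D14. The same held for Myd88, at 137, 163 and 130 CPM in mature cells, with a D14 ratio of 0.952 [0.843 to 1.07] and a D11 ratio of 1.19 [1.07 to 1.32]. Tlr13 was at 163, 125 and 130 CPM in mature cells and 70.0 [59.4 to 82.0] in immature cells at D14, and Tlr6 at 42.9, 36.9 and 33.6 CPM in mature and 11.4 in immature cells. Cd14 at 146 [131 to 163] CPM and Tlr2 at 53.6 [44.4 to 64.2] CPM in immature cells were also below the mature level at D14. Other lists moved in the whole class as well, with cMono markers at 508, 983 and 886 CPM, pro-B markers at 10.2, 22.5 and 161 CPM, hemoglobin UMIs at 620, 4700 and 1542 CPM and a median mitochondrial share of 0.199%, 0.241% and 0.903%. Their part in these ratios was not tested.

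**Figure D2:**
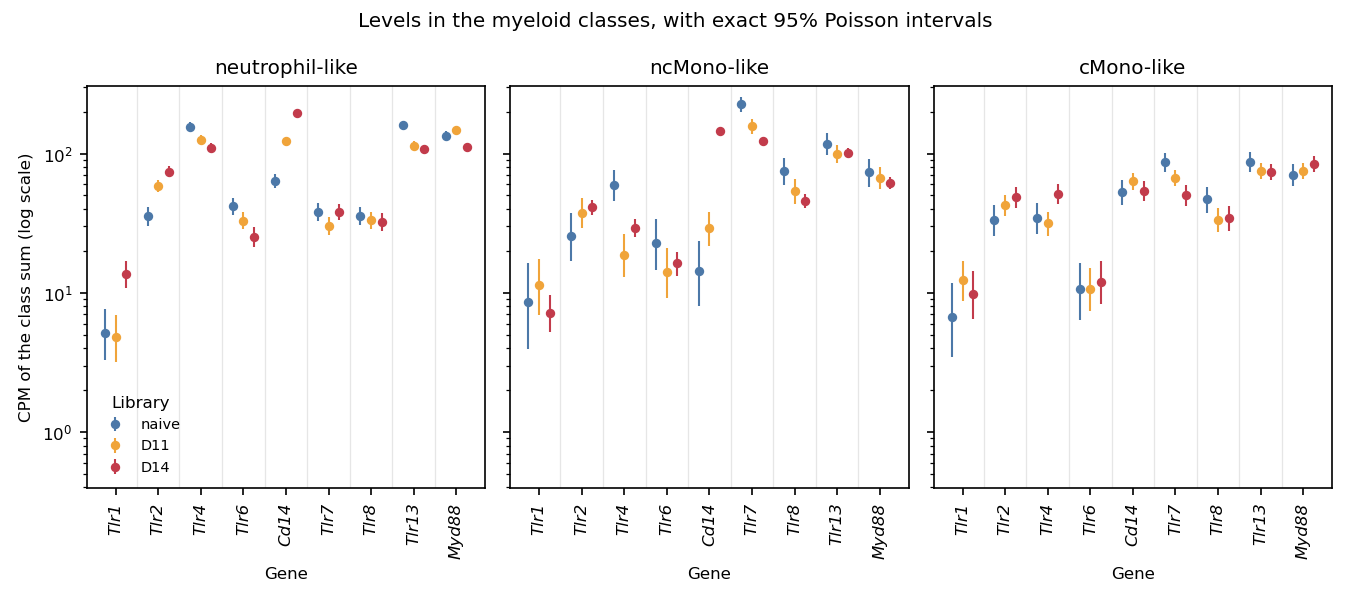
CPM on a log axis for 9 genes in the 3 myeloid classes, with points for the naive, D11 and D14 libraries and bars for exact 95% Poisson intervals; Tlr9 is left out for lack of UMIs. Cd14 climbs from 63.3 to 195 CPM in neutrophil-like cells and from 14.3 to 145 in ncMono-like cells, while Tlr7 steps down in both monocyte classes.

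In ncMono-like cells the change centred on Cd14. It was at 14.3 [7.99 to 23.6] CPM naive, 29.0 [21.6 to 38.2] at D11 and 145 [135 to 155] at D14, from 15, 51 and 888 UMIs. The naive and D11 intervals overlap slightly and the D14 level stands far above both. Relative to naive the D14 level was 10.1 [6.12 to 18.2] times and the D11 level 2.03 [1.13 to 3.89] times, the latter at the limit and not past it under 2 other gates. D14 over D11 was 4.99 [3.76 to 6.75]. Cd14 was the only gene of the set past 2-fold upwards in this class, with a background of 2.80% of 8701 genes at D11 and 4.17% of 10358 at D14. Tlr4 was the only gene past 2-fold downwards, at 59.0 [45.3 to 75.7], 18.8 [12.9 to 26.4] and 29.2 [25.1 to 33.8] CPM, against 3.06% and 4.76% of genes. Its D11 ratio was 0.318 [0.202 to 0.493] and its D14 ratio 0.495 [0.369 to 0.671], the latter at the limit and not past it under 3 other scalings. The D14 level was above that of D11, with a ratio of 1.55 [1.07 to 2.33], so the drop was not steady.

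Tlr7 and Tlr8 were lower in ncMono-like cells without passing 2-fold. Tlr7 was at 226 [198 to 256], 157 [139 to 176] and 123 [115 to 132] CPM, in 3 separate intervals, and its D14 ratio was 0.546 [0.472 to 0.635]. Tlr8 was at 75.2, 53.5 and 45.8 CPM, a ratio of 0.609 [0.473 to 0.792]. Without cells that had a UMI of the stress genes Hspa1a or Hspa1b the D14 log2 ratio was -1.07 for Tlr8, past 2-fold, and -0.99 for Tlr7. Tlr13 (118, 99.7 and 101 CPM) and Myd88 (73.3, 67.2 and 61.7 CPM) did not differ from naive beyond counting error on either day. Tlr2 was at 25.7, 37.6 and 41.3 CPM, and its D14 ratio of 1.61 [1.08 to 2.48] lay in the direction seen in neutrophil-like cells. Tlr1 and Tlr6 had intervals that held 1 on both days.

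In cMono-like cells no gene of the set was past 2-fold in either direction on either day, where 2.09% of 9628 genes were upwards and 1.81% downwards at D11, and 7.83% and 4.65% of 9685 at D14. Cd14 was level, at 52.9 [42.8 to 64.6], 63.3 [54.9 to 72.7] and 54.2 [45.9 to 63.7] CPM, and its D14 ratio of 1.03 [0.788 to 1.34] lies wholly below the ratios of both other myeloid classes. Without cells that had a Hspa1a or Hspa1b UMI its log2 ratio was 0.52 in place of 0.04. The naive order, in which cMono-like cells held 3.70 [2.14 to 6.87] times the Cd14 of ncMono-like cells, was turned around at D14, when ncMono-like cells held 2.67 [2.24 to 3.2] times that of cMono-like cells. Tlr7 was lower here too, at 86.3 [73.2 to 101], 67.1 [58.4 to 76.7] and 50.2 [42.2 to 59.4] CPM, a D14 ratio of 0.582 [0.460 to 0.737]. Tlr4 was higher, at 34.5, 31.5 and 51.3 CPM, a ratio of 1.49 [1.10 to 2.04], and so was Tlr2, at 33.4, 42.8 and 48.8 CPM, a ratio of 1.46 [1.07 to 2.02]. Immature neutrophil transcripts in this class summed to 115, 238 and 1332 CPM, progenitor markers to 33.4, 91.0 and 301 CPM and hemoglobin UMIs to 135, 2748 and 2179 CPM, and their part in these ratios was not tested.

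**Figure D3:**
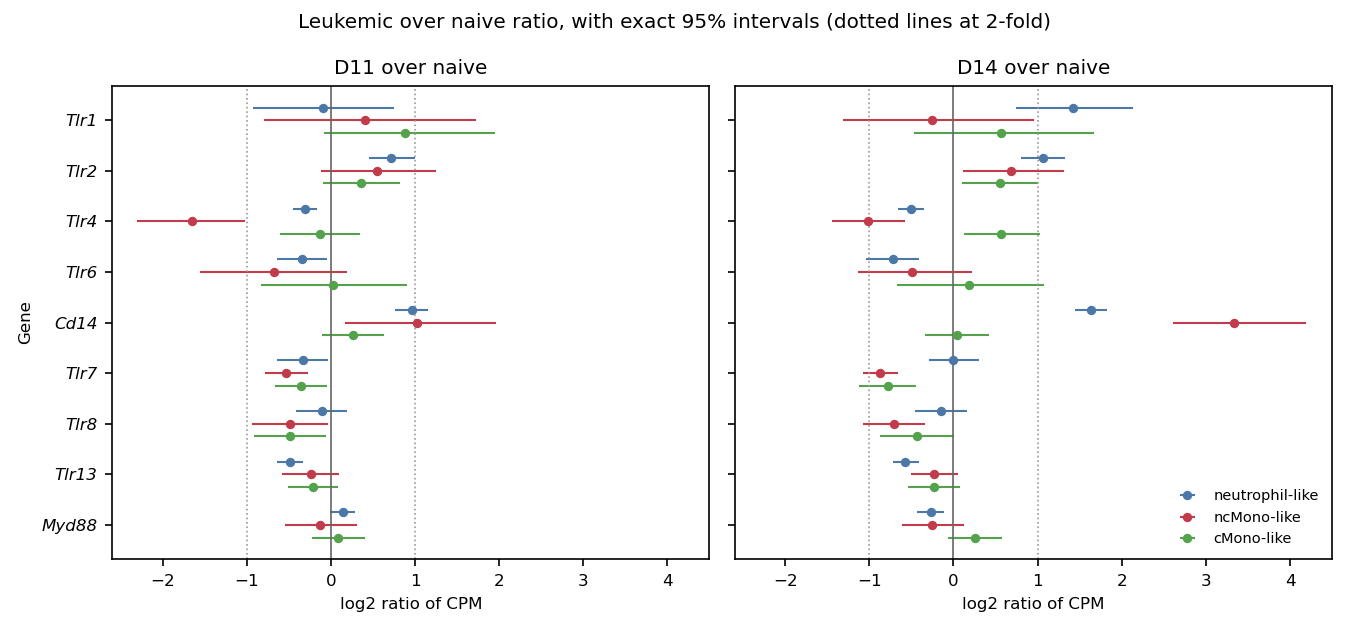
log2 ratio of CPM to naive for 9 genes at D11 and D14, with points for neutrophil-like, ncMono-like and cMono-like cells, bars for exact 95% intervals and dotted lines at 2-fold. Cd14 in ncMono-like cells lies at 3.34 at D14, far to the right of the same gene in cMono-like cells at 0.04, and Tlr4 at D14 lies left of 0 in ncMono-like cells and right of 0 in cMono-like cells.

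B-like cells had enough UMIs for 5 genes. At D11 Tlr4 was past 2-fold downwards, with 2.18% of 9477 genes downwards and 2.0% upwards. It was at 3.38 CPM from 5 UMIs against 13.6 CPM from 34 UMIs naive, a ratio of 0.25 [0.0762 to 0.641]. The D14 level of Tlr4 was 25.8 [11.1 to 50.8] CPM from 8 UMIs, not below naive. At D14 Myd88 was past 2-fold upwards, at 29.0 [13.3 to 55.0] CPM from 9 UMIs in 40 cells against 7.98 CPM naive, a ratio of 3.63 [1.46 to 8.35], with 4.44% of 8790 genes upwards and 3.45% downwards. Tlr1 held its level in these cells, at 35.5, 32.5 and 32.2 CPM, with intervals of the ratios that held 1.

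The Cd14 values were also looked at cell by cell. At D14, 59.1% [55.1 to 63.0] of ncMono-like cells had a Cd14 UMI, against 17.9% [12.8 to 23.9] at D11 and 7.94% [3.87 to 14.1] naive, with median depths of 9253, 8063 and 8017 UMIs. After each cell was thinned to 1000 UMIs, which left out none of these cells, the shares were 13.3% [10.7 to 16.3], 2.04% [0.559 to 5.14] and 0.794% [0.0201 to 4.34]. The rise was spread over many cells, since the 61 D14 cells with the most held 40% of the Cd14 UMIs and 23 cells had 6 or more. In neutrophil-like cells the thinned shares were 4.59%, 9.48% and 14.4%, leaving out 14, 49 and 114 shallower cells, and 15.3%, 25.2% and 37.7% before thinning. In cMono-like cells the thinned shares were 8.45%, 6.38% and 1.63%, and the unthinned 39.4%, 43% and 58.5% ran the other way while the CPM was level, so no order is read from them.

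T-like, B-like and NK-like cells, which should lack Cd14, were used as a guide to the level of free RNA. Hemoglobin barcodes are given beside them and held more. They were set aside whatever other markers they carried, so this class may include myeloid cells. The part of such cells in its Cd14 was not tested. Hemoglobin barcodes held 22 [5.58 to 102] times the Cd14 of T-like cells in the naive library. In T-like cells 0.328% of 1220 naive cells had a Cd14 UMI, at a median depth of 9169.5 UMIs, and none of 249 at D11 or of 105 at D14, while B-like cells had 0 Cd14 UMIs in each library. Hemoglobin barcodes held Cd14 at 7.62, 6.16 and 9.98 CPM, below the ncMono-like levels, although the naive ncMono-like level was not above it beyond counting error (ratio 1.87 [0.719 to 5.43]). NK-like cells held 0, 1 and 2 Cd14 UMIs, the last from 54 cells and equal to 5.69 [0.689 to 20.5] CPM. The 8 neutrophil markers in ncMono-like cells summed to 297 CPM naive, 421 at D11 and 169 at D14. The 7 cMono markers summed to 409, 360 and 334 CPM, with at most 1 marker of either list at 0. Both lists were lower at D14 than in the naive library. The gate requires a lead over each of these lists, which limits their level in gated cells. The immature neutrophil transcripts, which were not part of the gate, went the other way, at 10.5, 13.7 and 50.1 CPM. Hemoglobin UMIs summed to 156, 1725 and 1468 CPM and the 8 pro-B markers to 1.90, 3.99 and 48.3 CPM. The part of any of these lists in the Cd14 result was not tested.

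Hspa1a and Hspa1b moved with the same libraries. Among ncMono-like cells 11 of 126 in the naive library had a UMI of either, 120 of 196 at D11 had one, and at D14 it was 488 of 609. At D14 Cd14 was at 154 [143 to 165] CPM in the cells with such a UMI and at 104 [85.3 to 125] CPM in the 121 without, while at D11 it was at 25.1 [16.8 to 36.1] CPM with and 36.6 [22.9 to 55.4] without. In cells without one the naive level was 15.7 [8.78 to 25.9] CPM, so the D14 over naive log2 ratio was 2.72 there against 3.34 over all cells. In neutrophil-like cells at D14 the Cd14 level was 200 CPM with and 194 CPM without such UMIs. In cMono-like cells at D14 it ran the other way, at 46 [37.1 to 56.4] CPM with and 76.3 [57.8 to 98.9] CPM without.

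**Figure D4:**
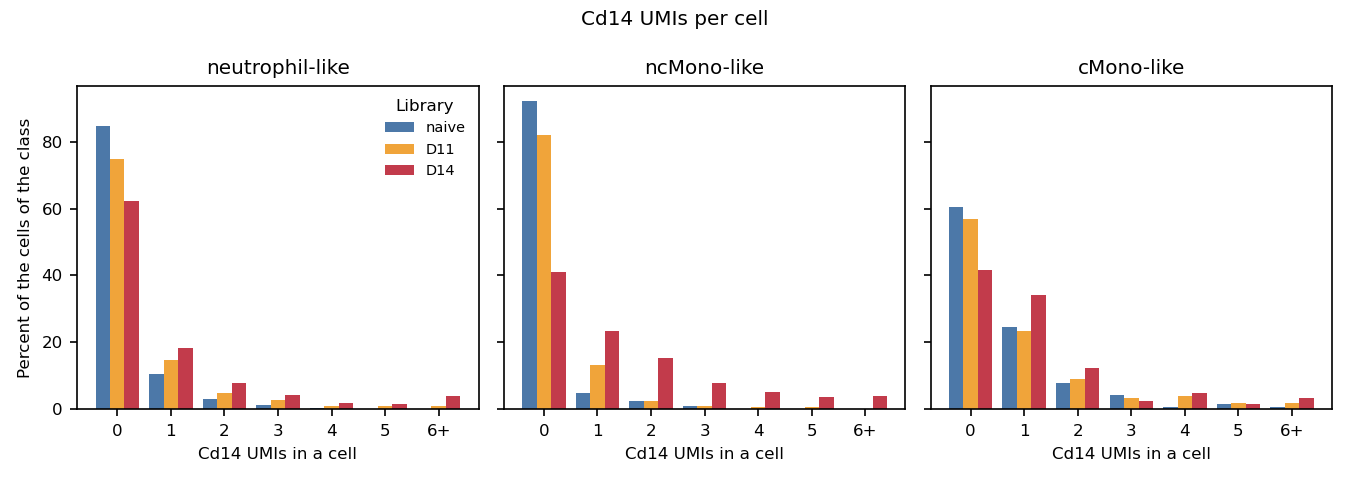
Percent of cells of each myeloid class by the number of Cd14 UMIs in the cell, in the naive, D11 and D14 libraries, before thinning. In ncMono-like cells 92.1% had none in the naive library and 40.9% had none at D14, with bars spread over 1 to 6 or more UMIs.

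Cell numbers, UMIs per cell and levels together set which class held the transcripts of the blood sample. Fewer cells of a class and fewer transcripts per cell cannot be told apart from the total. Median UMIs per cell at D14 were 31543 in pro-B-like, 21019 in cMono-like, 9253 in ncMono-like and 3847.5 in neutrophil-like cells. Of the Cd14 UMIs of kept barcodes, ncMono-like cells held 3.30% naive, 4.38% at D11 and 37.0% at D14, while the neutrophil-like share went from 65.4% and 63.9% to 47.7% and the cMono-like share from 20.9% and 17.3% to 6.21%. For Tlr7 the ncMono-like share was 30.0%, 32.2% and 58.4%, although its CPM was lower at D14. For Tlr13 it was 10.6%, 13.5% and 37.2%. Pro-B-like cells held 31.0% of Tlr4 UMIs and 20% of Myd88 UMIs at D14, against 5.14% and 2.87% at D11. This class held 24056022 of all 51192755 kept UMIs at D14 and 3159905 of 36950092 at D11. Both genes lay below that share on both days. The pro-B-like level of Tlr4 was 18.7 CPM at D11 and 21.2 at D14, and that of Myd88 14.2 and 15.6. The T-like share of Tlr1 went from 66.9% to 23.6% and 8.07%, beside T-like cell numbers of 1220, 249 and 105, while its T-like level was 30.1, 28.4 and 19.8 CPM.

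**Figure D5:**
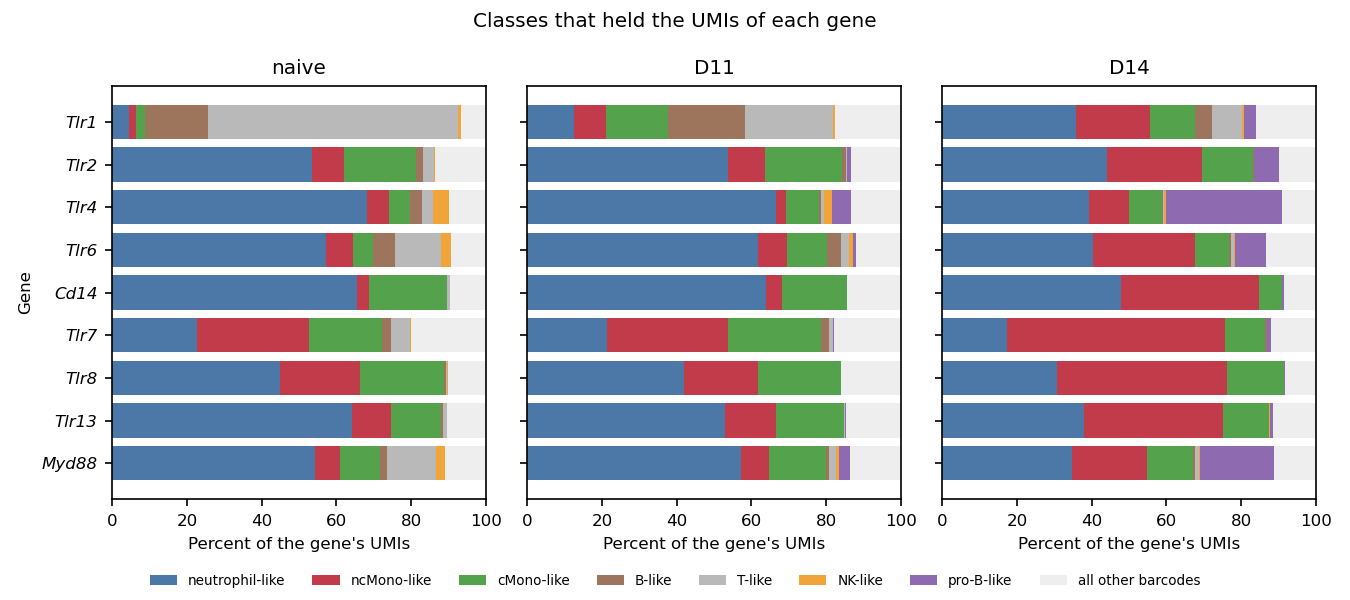
Percent of the UMIs of each of 9 genes held by each cell class, as stacked bars for the naive, D11 and D14 libraries, with all other kept barcodes in light grey. The ncMono-like share of Cd14 grows from 3.30% to 37.0%. Pro-B-like cells take 31.0% of Tlr4 at D14, and 24056022 of all 51192755 kept UMIs of that library.

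The wider pathway was summarised by a list of 45 genes written from their known roles. In neutrophil-like cells 1 gene was past 2-fold upwards and 8 downwards at D14 of the 38 with enough UMIs, against 11.4% and 12.5% of all genes, with a median log2 ratio of -0.39 beside -0.17 over all genes. Lbp, which codes for the lipopolysaccharide-binding protein, rose from 11 to 107 UMIs, 7.80 [4.19 to 16.1] times. Among the genes that fell were Irak2 (0.460 times) and Traf6 (0.469), which relay the signal from MyD88, the trafficking genes Slc15a4 (0.378) and Cnpy3 (0.381), the latter a chaperone of Toll-like receptors, and the interferon regulator Irf7 (0.468). The cytokine Il1b was at 0.468 [0.457 to 0.479] times its naive level and the chemokine Ccl3 at 0.332 [0.225 to 0.482] times. The eighth was Cd180, a relative of TLR4, from 22 UMIs naive to 11 at D14. In mature neutrophil-like cells alone 1 gene was past 2-fold upwards and 7 downwards of 37, against 864 and 977 of all 9544 genes. Of the genes named here, Irf7 (0.572 times) and Il1b (0.687) were not past 2-fold, while Irak2 (0.489), Traf6 (0.460), Slc15a4 (0.441), Cnpy3 (0.393), Ccl3 (0.442), Cd180 (0.114, from 22 and 2 UMIs) and Lbp (4.10, from 7 and 23 UMIs) were. The remaining fall was in a kinase or ubiquitin factor gene that was not past 2-fold in the whole class.

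In ncMono-like cells 4 genes were past 2-fold upwards and 6 downwards at D14 of 38, against 4.17% and 4.76% of all genes, with a median of -0.14 beside 0.00 over all genes. Of the 4 that rose, 3 code for brakes of this pathway. Tnfaip3, which codes for the ubiquitin editor A20, was 4.59 [3.11 to 7.08] times higher, Irak3, a kinase-like inhibitor, 2.42 [2.05 to 2.88] times and Nfkbia, the inhibitor of NF-κB, 2.32 [2.06 to 2.62] times. The other was Il1b, 2.28 [2.03 to 2.57] times, the opposite direction to neutrophil-like cells. Of 5 co-receptors and relatives, 4 had enough UMIs and 3 fell: Ly86 (0.429 times) and its partner Cd180 (0.485), and the scavenger receptor Cd36 (0.477). Irf7 (0.314), Nlrp3 (0.476) and Cxcl2 (0.154, from 20 and 18 UMIs) fell as well.

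In cMono-like cells 1 gene was past 2-fold upwards and 3 downwards of 39, against 7.83% and 4.65% of all genes, with a median of -0.27 beside 0.07. Lbp went from 1 to 37 UMIs, a ratio of 24.2 [4.08 to 981]. Ly86 (0.364 times), Cd180 (0.405) and Irf7 (0.254) fell. None of the 6 brakes was past 2-fold in this class.

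Genes whose levels ran most like each member were found over the 22 sums of class and library with at least 50 cells, by Pearson's r of log2(CPM + 10) among 9756 genes that reached 20 CPM in a sum. The sums share libraries and differ in depth, so r is a description. Tlr2 was closest to Nfe2 (r = 0.982), a transcription factor gene known from platelets and red cells, Aldh3b1 (0.979) and Sqor (0.968). Cd14 was closest to Nfe2, the haptoglobin gene Hp and Mcemp1, each at 0.947. Tlr4 was closest to Tirap (0.946), the bridging adaptor between TLR4 and MyD88, then Midn and Eepd1. Tlr7 was closest to Cbr3 (0.968), Ceacam1 and Cst3, and Tlr8 to Clec12a (0.982), Ltbr and Abcd2.

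Tlr13 was closest to Il13ra1 (0.988), Abcd2 and Sort1, the highest values of the set. Tlr6 was closest to Kdm6b (0.964), Pfkfb4 and Arrdc3, and Myd88 to Pgd (0.964), Nlrx1 and Tnf. Tlr1, which is spread over lymphoid and myeloid classes, had the lowest values, with Mgmt at 0.878, BE692007 at 0.862 and Gm16158 at 0.854. Tlr9 never reached 20 CPM, so no genes are named for it.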

How the data were processed

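PB leukocytes of 1 naive, 1 D11 and 1 D14 sample were sequenced as 10x Genomics 3′ v3 libraries. The authors ran Cell Ranger (7.1.0 per the submitters' processing notes, 5.0.1 in the file header, build mm10) and deposited filtered matrices of raw UMI counts without normalization, over 5386, 8536 and 9337 barcodes and 30362408, 57640396 and 65861863 UMIs.

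Counts were summed per library and gated class and given as CPM. No doublet caller was run, and the lead that a gate requires left 103, 75 and 97 barcodes with markers of 2 classes unassigned. Poisson and Clopper-Pearson 95% intervals and conditional binomial intervals of ratios (scipy 1.17.1) are exact and cover counting error only. Where a count of 0 is set beside the level of 3 counts, that level lies below the exact upper limit. TMM factors came from edgeR 4.0.16 (R 4.3.3) as an alternative scaling. Gates, ratios and calls were checked on data simulated from the sums of the same gated cells. The changes were planted in well-counted genes with counting error only. That check cannot speak to errors of gating, to genes with few UMIs or to differences between libraries. Promoter stretches are from RefSeq (GRCm38.p6).

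The 10 genes, the marker gates, the pathway list and the alternatives were chosen with earlier results of these data known. Named from the pathway list were genes past 2-fold at D14 in a myeloid class, at most 3 per role and class by size of the ratio, and for each of the 10 genes the 3 most alike in pattern. Markers and members were left out of the latter. The alternatives covered barcode filters, gates, shared barcodes, scaling, the fold and the UMI minimum, and leaving out cells with Hspa1a or Hspa1b UMIs, which was chosen after seeing the data.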

Additional observations from a re-analysis of the deposited data

Results flagged for a closer look

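At D14 Tlr4 differed from naive beyond counting error in opposite directions, with a ratio of CPM of 1.49 in cMono-like cells, 0.704 in neutrophil-like cells and 0.495 in ncMono-like cells. Myd88 did so too, with a ratio of 3.63 in B-like cells, which rests on 9 UMIs in 40 cells, and 0.831 in neutrophil-like cells. With TMM factors the Myd88 fall in neutrophil-like cells was not beyond counting error. In mature neutrophil-like cells alone neither differed from naive beyond counting error, with ratios of 0.929 [0.829 to 1.04] for Tlr4 and 0.952 [0.843 to 1.07] for Myd88. With 1 library per condition the difference between classes was not tested.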

How the results depend on the processing

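Of 722 recalculations of the 64 gene-by-class ratios with enough UMIs, 705 stayed within the interval of the reported ratio and 17 moved beyond it. None of the ratios called past 2-fold reversed, and only those were checked for a reversal. Some ratios that were not called did change sign. Tlr1 in ncMono-like cells at D11 went from 0.41 to -0.50 on the log2 scale without cells with Hspa1a or Hspa1b UMIs. The count in neutrophil-like cells at D11 went from 0 to 1, Cd14, with a gate of at least 4 markers and a lead of 3, with TMM factors and with median-of-ratios size factors, and to 2 at 1.5-fold. In ncMono-like cells the D11 count went from 2 to 1 with a gate of at least 2 markers and a lead of 1 and with a hemoglobin gate at 25%, where Cd14 was lost, and the D14 count from 2 to 1 with TMM factors, median-of-ratios size factors and the mean of per-cell CPM, where Tlr4 was lost, and to 5 at 1.5-fold. In cMono-like cells the D14 count went from 0 to 1 at 1.5-fold and the D11 count from 0 to 1, Tlr1, without cells with Hspa1a or Hspa1b UMIs. The B-like D14 count went from 1 to 0 with stricter limits on genes and mitochondrial UMIs and to 2 with the mean of per-cell CPM. The cause was not tested. Of 90 thinned shares, 55 moved beyond their interval at 2000 UMIs, a depth at which more cells show a UMI. No paired analysis was possible because each condition has 1 library. Tlr9 stayed under 20 UMIs over every pair of libraries compared, for a reason that was not tested.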
